A study of Mus musculus with 3 samples.

Results

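The cytochrome P450 genes of the mouse are those whose symbol is Cyp followed by a digit, a choice that used no measured value. Of 131 such symbols in the annotation, 102 had transcripts in the files, 98 of them coding and 4 pseudogenes, among 24204 genes with a symbol and a value. P450 enzymes hold a heme iron with which they insert oxygen into their substrates, taking electrons from the reductase POR or, in mitochondria, from ferredoxin. Families 1, 2 and 3 oxidise drugs and food toxins, family 4 and the Cyp2j enzymes oxidise fatty acids and their signalling products, and the remaining members act on sterols, steroids, retinoic acid and vitamin D. In the small intestine they are known as a barrier that alters swallowed compounds before these reach the liver.

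Messenger RNA was sequenced from 3 pooled libraries of sorted epithelial cells from upper small intestines of C57BL/6 mice, with 1 library per group. GIP-GFP held cells of a reporter mouse in which GFP marks cells that make the gut hormone GIP. Ngn3-TOMATO and Ngn3-negative came from male offspring of Neurogenin3 (Ngn3)-Cre and ROSA26-LoxP-STOP-LoxP-tomato mice and were sorted for and against tomato among cells without the blood cell marker CD45, a gate not stated for GIP-GFP. The Cre marks every descendant of a cell that used the Ngn3 driver, so the tomato sort is a lineage and not 1 cell type, and the Ngn3-negative sort is the other epithelium, named by the submitters as enterocytes, goblet and Paneth cells. Each pool combined equal amounts of RNA from individual samples, and the sources used here give neither the mice per pool nor their age. The study set out to describe GIP cells beside the enteroendocrine lineage and the other epithelium.

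Depth ran from 592.1 Mb of read bases in GIP-GFP to 1380 Mb in Ngn3-TOMATO, and 11974 to 13144 genes reached 1 scaled FPKM, the deposited length-corrected value divided by 1 common number. The 12 enterocyte markers summed to 46589 in Ngn3-negative, 9681 in Ngn3-TOMATO and 13521 in GIP-GFP, and none was listed at 0. The 12 enteroendocrine markers summed to 1984, 114556 and 295138 in the same order, and 729 scaled FPKM of Gip remained in Ngn3-negative. The tomato sort also held the 6 goblet and the 6 Paneth markers above the Ngn3-negative level, with sums of 164355 against 29334 and 24779 against 4373. No difference below has a replicate check. Intervals in brackets are 95% counting intervals within a library, which leave out the spread between mice and sorts. In such bulk samples fewer cells of a type and less RNA per cell cannot be told apart. GIP-GFP also came from another reporter mouse, so mouse line and sort cannot be told apart from cell type in its comparisons.

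The stretch of coding sequence that most plainly marks the family is the loop that carries the cysteine bound to the heme iron. A pattern for this loop was found in 89 of the 98 coding members, and the cysteine codon was TGC in 55 and TGT in 34 of them. Only the longest reading frame of each member was searched, and Cyp2b10, Cyp2s1 and Cyp51 were among those without a match. The loop is shown for some members on which the results turn, to show how near they are to each other. Each line holds 30 coding bases of a GENCODE M21 transcript, with the cysteine codon in capitals. In Cyp3a11, for example, it spans coding bases 1306 to 1335 of 1512.
Cyp3a11: tttgggaatggacccaggaacTGCcttggc
Cyp3a25: tttggaaatggacccaggaacTGCataggc
Cyp4f14: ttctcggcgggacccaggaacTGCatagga
Cyp4b1: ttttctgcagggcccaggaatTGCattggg
Cyp2c29: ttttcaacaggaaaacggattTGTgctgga
Cyp2c65: ttctcaacaggaaaacggattTGTgtggga
Cyp2c66: ttctcaacaggaaaacggattTGTgtggga
Cyp2j5: ttctcaatgggaaaaagagctTGTcttgga
Cyp2j6: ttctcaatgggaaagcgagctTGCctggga
The neighbours Cyp2c65 and Cyp2c66 differed at 0 of these 30 bases, Cyp3a11 and Cyp3a25 at 3, Cyp2j5 and Cyp2j6 at 4, and Cyp3a11 and Cyp2c29 at 15. Such likeness limits how reads are assigned. Of the 37 members that reached 5 scaled FPKM in a library, 4 shared 20% or more of their transcript 50-mers with another gene. These were Cyp2c65 (20.6%, mostly with Cyp2c66), Cyp3a25 (26.8%, mostly with Cyp3a59), Cyp2c68 (43.3%, mostly with Cyp2c40) and Cyp4a10 (29.8%, mostly with Cyp4a32), and their values are uncertain for that reason. Cyp2c66 at 19.5% and Cyp4f16 at 17.4% lay just under that limit.

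P450 messenger RNA was most abundant in the Ngn3-negative epithelium. The 102 members summed to 4805 scaled FPKM there, 0.535% of the library's total, against 1840 (0.173%) in Ngn3-TOMATO and 1471 (0.141%) in GIP-GFP. The sum was thus 2.61-fold lower in the tomato lineage and 3.27-fold lower in GIP cells. At 1 scaled FPKM or more stood 42 members in Ngn3-negative, 45 in Ngn3-TOMATO and 40 in GIP-GFP, so the libraries differed in the level of the family more than in how many members they held. Over the 3 libraries 52 members reached 1 scaled FPKM somewhere, 28 stayed between 0 and 1, and 22 were listed at 0 throughout.

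The leading member differed between libraries. Cyp4f14, which inactivates the inflammatory lipid leukotriene B, led in Ngn3-negative with 788 scaled FPKM, followed by Cyp3a11 with 514 and Cyp3a13 with 506. Cyp2c65, an intestinal family 2 enzyme, led in Ngn3-TOMATO with 208, just ahead of Cyp4b1 with 194. In GIP-GFP the first was Cyp4b1, a hydroxylase of medium-chain fatty acids, with 216, followed by Cyp4f14 with 178 and Cyp4v3 with 143. The 5 most abundant members made up 53.7% of the P450 sum in Ngn3-negative, 45.1% in Ngn3-TOMATO and 50.9% in GIP-GFP.

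**Figure D1:**
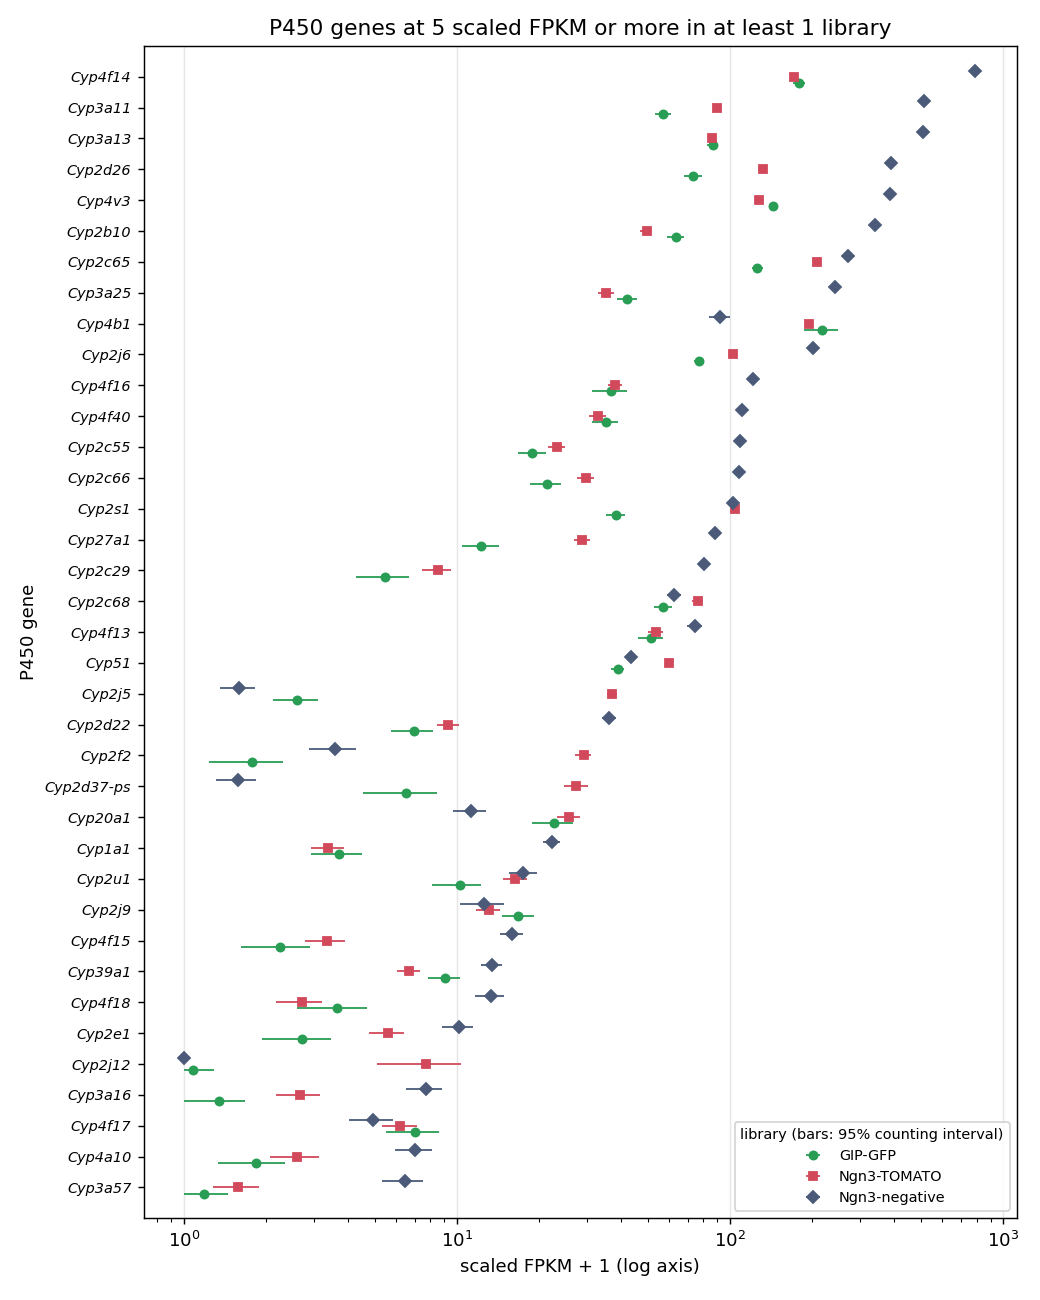
Levels of the 37 P450 genes that reached 5 scaled FPKM in a library, as scaled FPKM plus 1 on a log axis, with 1 point per library and bars for the 95% counting interval. From Cyp4f14 down to Cyp2c29 nearly every gene has its Ngn3-negative point farthest right, while Cyp4b1 (91.0 in Ngn3-negative against 194 and 216), Cyp2j5, Cyp2f2, Cyp2d37-ps and Cyp20a1 have it farther left.

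In Ngn3-TOMATO against Ngn3-negative, 23 of 50 members compared were at least 2-fold lower, beside 9.93% of the 13452 genes compared, and 8 were at least 2-fold higher, beside 19.2% of genes. Ratios are of scaled FPKM plus 1, for genes that reached 1 in either library, and a member that passed only through its higher library had to differ, so these counts describe and do not test. The median log2 ratio of the members was -0.88 beside 0.04 over all genes compared, but 0.01 over 77 members with no filter on low values and -0.41 with a pseudocount of 5. In 20 members the whole counting interval lay beyond 2-fold lower and in 4 beyond 2-fold higher, and the same shares over all genes were not computed. The 4 include Cyp2j12, whose interval is too narrow, since its value of 0 in Ngn3-negative had limits of 0. The comparison of GIP-GFP with Ngn3-negative, which shares the latter library, had 26 of 47 members at least 2-fold lower (13.7% of 13477 genes) and 4 at least 2-fold higher (21.1%), with a median of -1.37 beside 0.07, or -0.14 over 75 members with no filter. Between GIP-GFP and Ngn3-TOMATO 9 of 48 members were at least 2-fold lower in GIP-GFP (8.76% of 13746 genes) and 2 at least 2-fold higher (8.08%), with a median of -0.26 beside 0.08. The shares of higher members were below the background in all 3 comparisons.

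**Figure D2:**
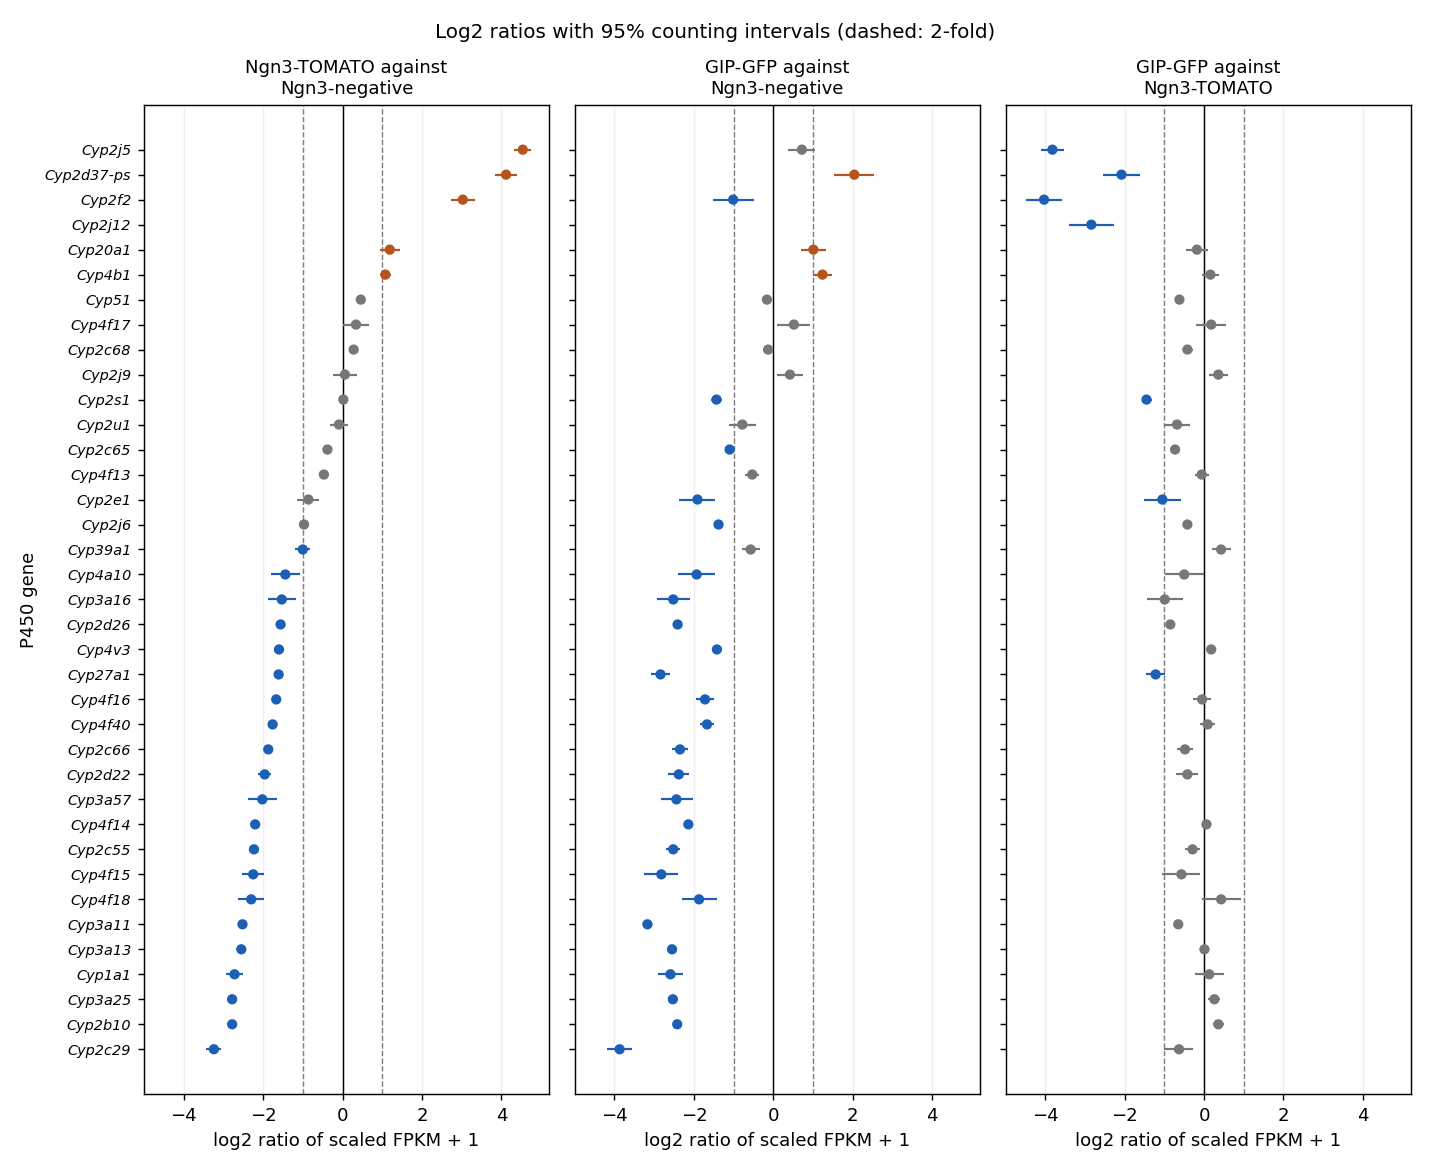
Log2 ratios of scaled FPKM plus 1 for the P450 genes that reached 5 in a library, with 95% counting intervals, in the 3 comparisons (blue: at least 2-fold lower, orange: at least 2-fold higher, grey: between). Most genes lie left of the 2-fold line in both comparisons with Ngn3-negative, down to -3.24 and -3.87 for Cyp2c29, and between the lines when the reporter libraries are compared. Cyp2j12 is not drawn against Ngn3-negative, where it was listed at 0.

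The enterocyte markers were lower in the same libraries as the lower members. The log2 ratios of the 12 enterocyte markers ran from -3.57 to -0.82 in Ngn3-TOMATO against Ngn3-negative, with a median of -2.24. Of the 50 members, 27 lay inside that range, 23 above it and 0 below. The upper end was Sis alone, which had transcripts of failed and too-little-data status in every library. The next marker was Vil1 at -1.13, so members such as Cyp2j6 (-0.97) lay inside only through Sis. In GIP-GFP against Ngn3-negative the markers ran from -2.76 to -0.63, with a median of -1.87, and 26 of 47 members lay inside, 17 above and 4 below. How much of the lower P450 level goes with the content of enterocytes or their RNA was not tested. The marker sum was 4.81-fold lower in Ngn3-TOMATO, beside 2.61-fold for the P450 sum. In GIP-GFP the steps were close, at 3.45-fold and 3.27-fold. Between the reporter libraries the order was opposite, with the marker sum higher and the P450 sum lower in GIP-GFP.

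Family 3, the broad drug oxidisers of gut and liver, had the lowest median log2 ratios of the roles with more than 1 member compared, -2.02 in Ngn3-TOMATO and -2.52 in GIP-GFP against Ngn3-negative. Its 8 members summed to 1276 scaled FPKM in Ngn3-negative, 212 in Ngn3-TOMATO and 184 in GIP-GFP, and made up 26.6%, 11.5% and 12.5% of the P450 sum. Of the 7 compared in Ngn3-TOMATO against Ngn3-negative, 6 were at least 2-fold lower (9.93% of all genes), and of the 6 compared in GIP-GFP against Ngn3-negative, 5 were (13.7%).
Cyp3a11 (chr5:145854607-145879854, minus strand, mm10), a target of the xenobiotic sensor PXR and the usual mouse counterpart of the main human drug oxidiser, had 514 scaled FPKM in Ngn3-negative, 88.6 in Ngn3-TOMATO and 56.0 in GIP-GFP. Its log2 ratio to Ngn3-negative was -2.52 [-2.58 to -2.46] in Ngn3-TOMATO, 5.74-fold lower, and -3.17 [-3.28 to -3.07] in GIP-GFP, 9.03-fold lower. The intervals of its level did not overlap between libraries, and GIP-GFP was the lowest.
Cyp3a13 (chr5:137892933-137921619, minus strand), which lies apart from the family 3 cluster, had 506 in Ngn3-negative, 85.3 in Ngn3-TOMATO and 85.6 in GIP-GFP. Its log2 ratio to Ngn3-negative was -2.55 [-2.60 to -2.51] in Ngn3-TOMATO and -2.55 [-2.62 to -2.48] in GIP-GFP, and the reporter libraries could not be told apart (0.01 [-0.07 to 0.09]). Cyp3a25 (chr5:145977194-146009618, minus strand) had 242, 34.3 and 41.1 in the same order, with log2 ratios of -2.78 [-2.89 to -2.68] and -2.53 [-2.65 to -2.40].
The minor members followed with lower values. Cyp3a16 had 6.68, 1.67 and 0.343 scaled FPKM in the order Ngn3-negative, Ngn3-TOMATO and GIP-GFP, with log2 ratios of -1.53 [-1.87 to -1.18] and -2.52 [-2.94 to -2.09]. Cyp3a57 had 5.44, 0.584 and 0.190, with log2 ratios of -2.02 [-2.39 to -1.65] and -2.44 [-2.84 to -2.03]. Cyp3a59 had 1.94, 0.336 and 0.766. The exception was Cyp3a44, highest in Ngn3-TOMATO with 1.65 against 0.482 and 0.142, which shares 26.5% of its 50-mers with other genes. Cyp3a41b was listed at 0 in all 3 libraries.

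Family 2 enzymes of drug oxidation held members of both directions. Their 39 members, of which 17 reached 1 scaled FPKM, summed to 1412 in Ngn3-negative, 598 in Ngn3-TOMATO and 381 in GIP-GFP. In Ngn3-TOMATO against Ngn3-negative 7 of 16 were at least 2-fold lower (9.93% of all genes) and 3 at least 2-fold higher (19.2%), and in GIP-GFP 10 of 15 were lower (13.7%) and 2 higher (21.1%). The share of higher members was near or below the background.
Cyp2b10 (chr7:25897664-25926624, plus strand), the classical phenobarbital-induced gene and a target of the sensor CAR, had 340 in Ngn3-negative, 48.5 in Ngn3-TOMATO and 62.5 in GIP-GFP. The log2 ratios to Ngn3-negative were -2.78 [-2.87 to -2.70] and -2.42 [-2.53 to -2.32]. Unlike Cyp3a11, it was higher in GIP-GFP than in Ngn3-TOMATO, by 0.36 [0.23 to 0.49].
Cyp2c29 (chr19:39287085-39330713, plus strand), a mouse epoxygenase of arachidonic acid, had the lowest ratio of the family in both comparisons, with 79.4 in Ngn3-negative, 7.50 in Ngn3-TOMATO and 4.48 in GIP-GFP. It was 9.47-fold lower in Ngn3-TOMATO (-3.24 [-3.43 to -3.05]) and 14.7-fold lower in GIP-GFP (-3.87 [-4.20 to -3.55]).
Further members were lower in both reporter libraries. Cyp2d26 had 389 in Ngn3-negative, 131 in Ngn3-TOMATO and 72.4 in GIP-GFP, with log2 ratios to Ngn3-negative of -1.56 [-1.62 to -1.50] and -2.41 [-2.52 to -2.30]. Its relative Cyp2d22, often compared to the human debrisoquine hydroxylase, had 35.2, 8.32 and 5.95, with ratios of -1.96 [-2.12 to -1.79] and -2.38 [-2.64 to -2.12]. The intestinal Cyp2c55 had 108, 22.2 and 17.9, with ratios of -2.23 [-2.35 to -2.11] and -2.52 [-2.70 to -2.34]. For Cyp2c66 the levels were 107, 28.6 and 20.3. Cyp2e1, which oxidises ethanol, had 9.17, 4.59 and 1.70, with ratios of -0.86 [-1.15 to -0.58] and -1.91 [-2.37 to -1.46], and its ratio in GIP-GFP against Ngn3-TOMATO was past 2-fold with an interval that reaches inside it (-1.05 [-1.51 to -0.59]). Cyp2c23 had 4.46, 1.23 and 1.11, and Cyp2c38 had 1.56, 0.367 and 0.512.

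Neighbours in the Cyp2c cluster on chromosome 19 did not share a pattern. The 15 members with transcripts summed to 630 scaled FPKM in Ngn3-negative, 345 in Ngn3-TOMATO and 230 in GIP-GFP. Cyp2c65 (chr19:39061006-39093948, plus strand) had 270, 208 and 125 in that order, a log2 ratio of -0.38 [-0.43 to -0.33] in Ngn3-TOMATO and -1.10 [-1.18 to -1.03] in GIP-GFP, while its copy Cyp2c66 next to it was at -1.87 [-1.99 to -1.75] and -2.35 [-2.54 to -2.16]. Cyp2c68 had 61.5, 75.1 and 56.0 and stayed within 2-fold throughout. At a low level, Cyp2c70 was higher in the reporter libraries, at 2.53 and 2.91 against 0.713, and Cyp2c67 had 2.42 in GIP-GFP against 0.511 and 0.868 but shares 52.8% of its 50-mers with other genes. In the same comparison the cluster thus held Cyp2c29, 9.47-fold lower, and Cyp2c68, within 2-fold.

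**Figure D3:**
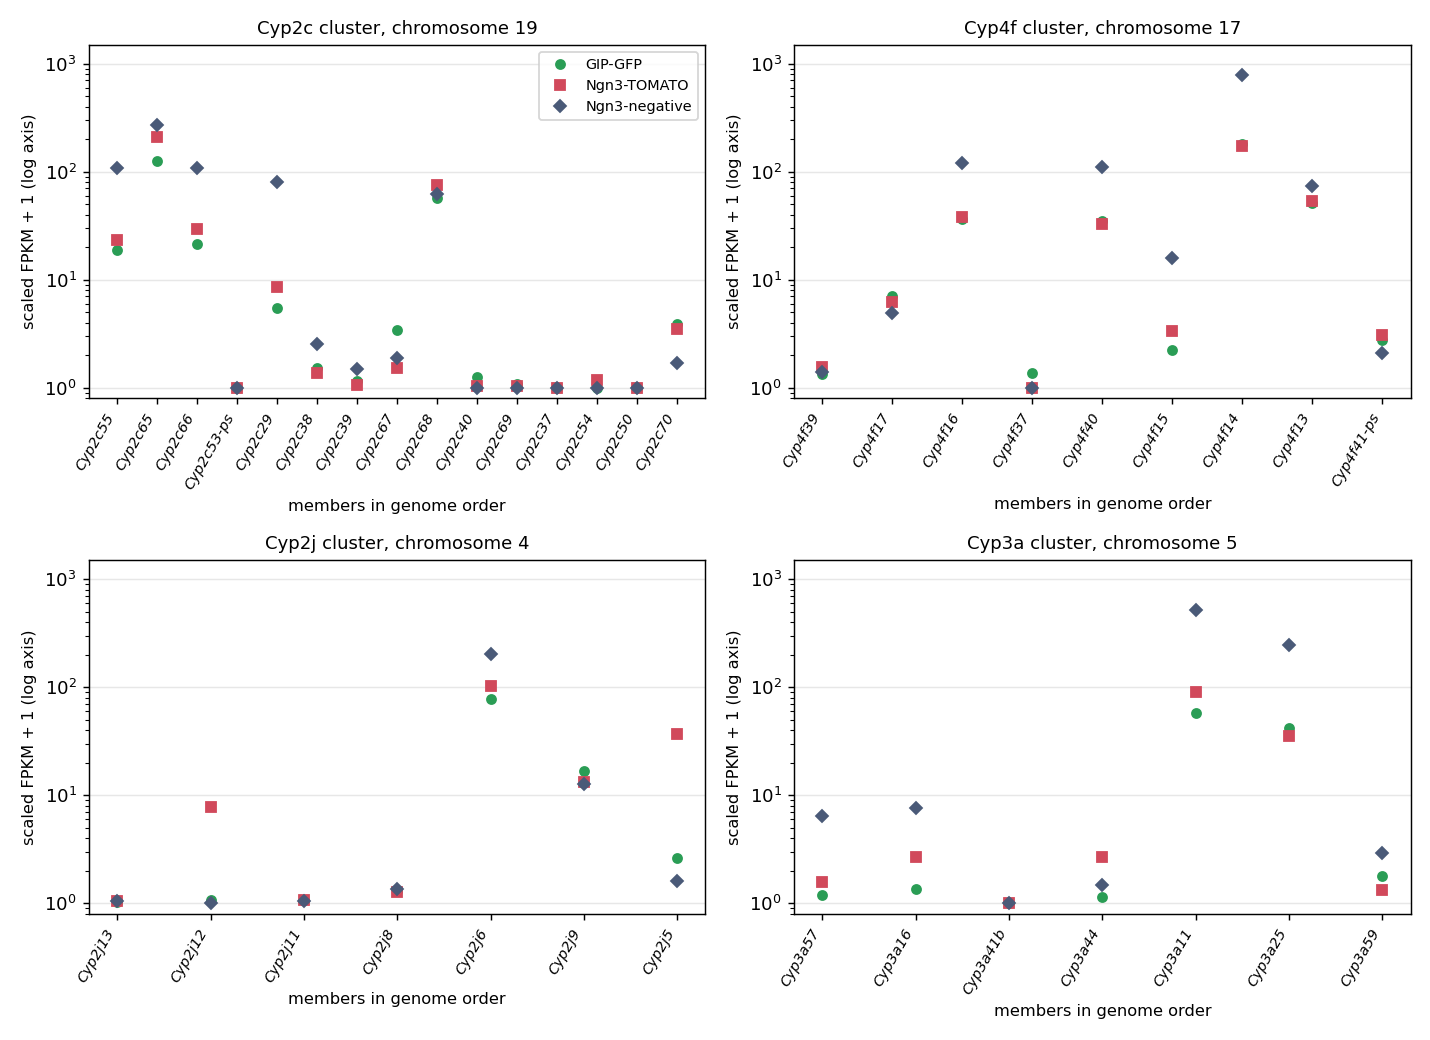
Levels of the members of 4 gene clusters in genome order, as scaled FPKM plus 1 on a log axis, with 1 point per library. In the Cyp3a cluster the Ngn3-negative point is highest at Cyp3a11 (514) and Cyp3a25 (242), in the Cyp2c cluster Cyp2c68 has its 3 points close together beside widely spaced Cyp2c29, and in the Cyp2j cluster Cyp2j5 (35.9) and Cyp2j12 (6.74) are highest in Ngn3-TOMATO while Cyp2j6 (200) is highest in Ngn3-negative.

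Some members, mostly of low level elsewhere, were highest in the tomato lineage. Cyp2j5 (chr4:96627432-96664119, minus strand), an arachidonic acid epoxygenase best known from mouse kidney and liver, had 35.9 scaled FPKM in Ngn3-TOMATO, 1.61 in GIP-GFP and 0.588 in Ngn3-negative. It was 23.2-fold higher than in Ngn3-negative (4.54 [4.32 to 4.76]) and GIP-GFP was 14.1-fold lower than Ngn3-TOMATO (-3.82 [-4.10 to -3.54]). Against Ngn3-negative, GIP-GFP was at 0.72 [0.37 to 1.06], within 2-fold only through the pseudocount. The plain ratio was 2.74, and a pseudocount of 0.1 gave a log2 ratio of 1.31.
Cyp2f2 (chr7:27119955-27133660, plus strand), known for activating naphthalene in the club cells of the mouse lung, had 28.1 in Ngn3-TOMATO, 2.57 in Ngn3-negative and 0.775 in GIP-GFP. Its log2 ratios were 3.03 [2.73 to 3.33] against Ngn3-negative and -4.03 [-4.48 to -3.59] for GIP-GFP against Ngn3-TOMATO, and GIP-GFP was also below Ngn3-negative, at -1.01 [-1.53 to -0.49]. An antisense gene overlaps 13.5% of its exons, and the sources used here do not give the strand used in counting.
The pseudogene Cyp2d37-ps (chr15:82688750-82690499, minus strand) had 26.4, 5.51 and 0.580 in the order Ngn3-TOMATO, GIP-GFP and Ngn3-negative, with log2 ratios to Ngn3-negative of 4.12 [3.84 to 4.40] and 2.04 [1.54 to 2.54], and 1 of its transcripts carried the status for too little data in every library. Cyp2j12 had 6.74 in Ngn3-TOMATO and 0.0791 in GIP-GFP, a log2 ratio of -2.84 [-3.41 to -2.28] between them, and was listed at 0 in Ngn3-negative. Cyp2d10 had 2.02 in Ngn3-TOMATO and 0.543 in Ngn3-negative and was listed at 0 in GIP-GFP, with 35.8% of its 50-mers shared.
Markers of other sources were read beside these genes. The 8 hepatocyte markers were split. Albumin (Alb) was at 42.0 in Ngn3-TOMATO, 4.65 in GIP-GFP and 0.247 in Ngn3-negative, and Ttr at 171, 113 and 19.9, whereas Apob was at 127, 123 and 436 and Cps1 at 709, 606 and 1983. Apoh was at 3.0, 1.68 and 1.74, Serpina1a was listed at 0 in all libraries, and Fgb and Ahsg stayed at or below 0.118. Of the 6 stroma markers, the endothelial Pecam1 was at 9.68, 1.97 and 0.342 in that order and Vim at 297, 145 and 7.98, while Col1a1, Col3a1, Pdgfra and Acta2 stayed at or below 0.292 in every library and were highest in Ngn3-negative. Goblet and Paneth markers were also highest in Ngn3-TOMATO, as given above. The part of these other cells in the high values was not tested.

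Fatty acid and eicosanoid oxidation formed the largest role by level in every library. Its 30 members summed to 1838 scaled FPKM in Ngn3-negative, 802 in Ngn3-TOMATO and 781 in GIP-GFP, which was 38.3%, 43.6% and 53.1% of the P450 sum. Of 18 compared in Ngn3-TOMATO against Ngn3-negative, 7 were at least 2-fold lower (9.93% of all genes) and 3 higher (19.2%), and in GIP-GFP 8 of 17 were lower (13.7%) and 1 higher (21.1%). Here too the higher share was near or below the background.
Cyp4f14 (chr17:32905070-32917329, minus strand) had 788 in Ngn3-negative, 171 in Ngn3-TOMATO and 178 in GIP-GFP. Its log2 ratios were -2.20 [-2.25 to -2.14] and -2.14 [-2.22 to -2.07], and the reporter libraries differed by less than their counting error (0.06 [-0.03 to 0.14]). Cyp4v3 (chr8:45305802-45333196, minus strand), the counterpart of the human gene mutated in Bietti crystalline dystrophy of the retina, had 384, 127 and 143, with log2 ratios of -1.60 [-1.64 to -1.55] and -1.42 [-1.48 to -1.36].
The Cyp4f cluster on chromosome 17 held 9 members that summed to 1112, 303 and 308. Within it Cyp4f16, Cyp4f40 and Cyp4f15 were at least 2-fold lower in both reporter libraries. Cyp4f16 had 120 in Ngn3-negative, 37.0 in Ngn3-TOMATO and 35.7 in GIP-GFP, with log2 ratios of -1.67 [-1.77 to -1.57] and -1.72 [-1.94 to -1.50]. Cyp4f40 had 110, 32.0 and 34.1, with ratios of -1.76 [-1.88 to -1.64] and -1.67 [-1.84 to -1.50]. Cyp4f15 had 14.9, 2.35 and 1.26, with ratios of -2.25 [-2.53 to -1.97] and -2.82 [-3.25 to -2.39]. Cyp4f13 (73.2, 52.6, 50.4) and Cyp4f17 (3.92, 5.21, 6.04) stayed within 2-fold. By its most abundant transcript alone, Cyp4f16 stood at -1.26 in GIP-GFP against Ngn3-TOMATO instead of -0.05.
Cyp4f18, a leukotriene hydroxylase known from mouse neutrophils, had 12.3, 1.70 and 2.64, with log2 ratios of -2.30 [-2.63 to -1.98] and -1.87 [-2.31 to -1.42]. Cyp4a10, a target of the fatty acid sensor PPAR alpha, had 6.03, 1.59 and 0.838, with log2 ratios of -1.44 [-1.80 to -1.07] and -1.93 [-2.39 to -1.48]. Cyp4a32, its copy, had 1.37, 2.15 and 3.54, which is the opposite order, but both are close copies that share reads. Cyp2j6 (chr4:96516138-96553651, minus strand), an epoxygenase, had 200, 102 and 76.0, with log2 ratios of -0.97 [-1.02 to -0.92] and -1.38 [-1.45 to -1.31]. Cyp2j9 (11.6, 12.1, 15.8) and Cyp2u1 (16.5, 15.4, 9.23) stayed within 2-fold.

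Cyp4b1 (chr4:115624728-115647705, minus strand) was the 1 member over 50 scaled FPKM that was higher in both reporter libraries by 2-fold. It had 91.0 [82.7 to 99.3] in Ngn3-negative, 194 [188 to 200] in Ngn3-TOMATO and 216 [185 to 248] in GIP-GFP. The log2 ratios to Ngn3-negative were 1.08 [0.94 to 1.22] in Ngn3-TOMATO and 1.24 [0.99 to 1.49] in GIP-GFP, and both intervals reach under the 2-fold line.
The value rests on a pair of transcripts. The longer had 78.3 in Ngn3-negative, 152 in Ngn3-TOMATO and 123 in GIP-GFP, and the shorter, which starts farther downstream, had 12.7, 42.0 and 93.4. By the most abundant transcript alone the log2 ratio in GIP-GFP was 0.64, and with libraries scaled to equal totals it was 0.84 in Ngn3-TOMATO, so the 2-fold call was lost in each while the direction was kept. Its neighbours were far lower. The pseudogene Cyp4b1-ps2, which shares 34.2% of its 50-mers, had 2.03 in Ngn3-negative, 0.678 in Ngn3-TOMATO and 3.69 in GIP-GFP. Cyp4x1 and Cyp4a14 of the same cluster were listed at 0 in all 3 libraries.
Cyp20a1, a member with no known substrate, had 10.3 in Ngn3-negative, 24.7 in Ngn3-TOMATO and 21.7 in GIP-GFP. Its log2 ratios to Ngn3-negative were 1.19 [0.95 to 1.44] in Ngn3-TOMATO and 1.01 [0.70 to 1.33] in GIP-GFP, but 0.79 and 0.07 by the most abundant transcript alone.

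The single family 1 member over 1 scaled FPKM was Cyp1a1 (chr9:57697613-57703824, plus strand), the classical target of the dioxin sensor AHR. It had 21.3 in Ngn3-negative, 2.38 in Ngn3-TOMATO and 2.70 in GIP-GFP, with log2 ratios of -2.72 [-2.94 to -2.50] and -2.59 [-2.91 to -2.27]. Cyp1a2 and Cyp1b1 stayed at or below 0.0881 scaled FPKM throughout.
Cyp2s1 (chr7:25802476-25816530, minus strand), an enzyme of epithelia outside the liver, was lower in GIP-GFP than in both other libraries. It had 102 in Ngn3-negative, 103 in Ngn3-TOMATO and 37.2 in GIP-GFP. GIP-GFP was 2.69-fold lower than Ngn3-negative (-1.43 [-1.56 to -1.30]) and 2.73-fold lower than Ngn3-TOMATO (-1.45 [-1.57 to -1.32]). The other libraries share a mouse cross and a CD45 gate, so cell type, mouse line and sort cannot be told apart here.

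Among sterol and bile acid enzymes, Cyp27a1 (chr1:74713574-74737890, plus strand), the mitochondrial hydroxylase of the sterol side chain, had 87.3 in Ngn3-negative, 27.8 in Ngn3-TOMATO and 11.3 in GIP-GFP. It was lower in both reporter libraries, by -1.61 [-1.73 to -1.50] and -2.84 [-3.07 to -2.60], and lower in GIP-GFP than in Ngn3-TOMATO, at -1.22 [-1.47 to -0.98].
Cyp51, which demethylates lanosterol in cholesterol synthesis, did not share this pattern and had 42.3, 58.7 and 37.8 in the same order. Other cholesterol synthesis genes had a median log2 ratio against Ngn3-negative of 0.17 in Ngn3-TOMATO (21 compared) and -0.19 in GIP-GFP (20 compared). Cyp39a1, an oxysterol hydroxylase, had 12.4, 5.70 and 8.05, and was 2.01-fold lower in Ngn3-TOMATO, with a log2 interval of [-1.19 to -0.82], and within 2-fold in GIP-GFP (-0.57 [-0.80 to -0.34]). Cyp7a1, the rate-limiting enzyme of bile acid synthesis in the liver, and Cyp8b1 were listed at 0 in all 3 libraries.
Retinoic acid, vitamin D and steroid enzymes were low in all 3 libraries. Cyp26a1, which breaks down retinoic acid, had 1.42 in Ngn3-TOMATO, 0.332 in GIP-GFP and 0.0549 in Ngn3-negative. Cyp27b1, which makes active vitamin D, had 0.257 in Ngn3-negative, 0.287 in Ngn3-TOMATO and 1.15 in GIP-GFP, and Cyp2r1, which acts before it, had 1.75, 2.76 and 3.06. Cyp24a1, which ends vitamin D action, was listed at 0 throughout, as were Cyp11b1, Cyp11b2, Cyp19a1 and Cyp21a1 of steroid synthesis. Cyp17a1 was highest in Ngn3-negative, at 1.07. The low members not named so far were Cyp2t4, highest in Ngn3-TOMATO at 1.00, and Cyp4f41-ps, which had 2.11 in Ngn3-TOMATO, 1.77 in GIP-GFP and 1.09 in Ngn3-negative.

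**Figure D4:**
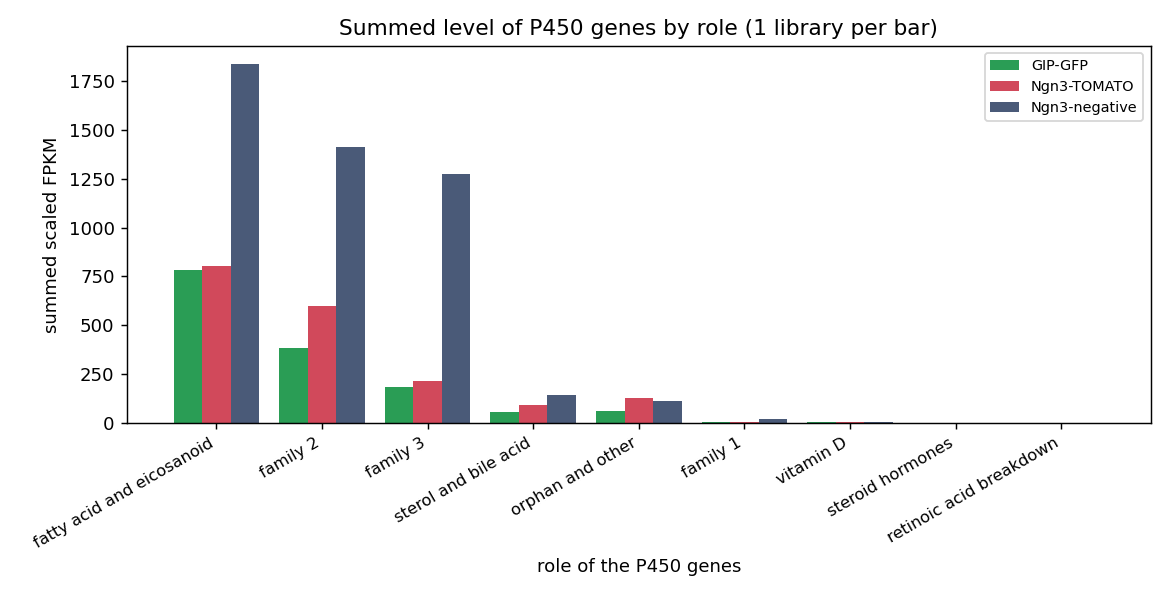
Summed scaled FPKM of the P450 genes by role, with 1 bar per library and the axis starting at 0. Fatty acid and eicosanoid enzymes form the tallest bars in every library (1838 in Ngn3-negative, 802 in Ngn3-TOMATO, 781 in GIP-GFP), and family 3 stands at 1276 in Ngn3-negative against 212 and 184.

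Over the 52 members at 1 scaled FPKM or more, Ngn3-negative was the highest library for 30, Ngn3-TOMATO for 13 and GIP-GFP for 9. Of those 30, Ngn3-TOMATO was the middle library in 19 and GIP-GFP in 11. The 9 members highest in GIP-GFP were low except Cyp4b1 and Cyp2j9, since the others stayed at or below 6.04 scaled FPKM. Between GIP-GFP and Ngn3-TOMATO the members at least 2-fold lower in GIP-GFP were Cyp2f2, Cyp2j5, Cyp2j12, Cyp2d37-ps, Cyp2d10, Cyp2s1, Cyp27a1, Cyp3a44 and Cyp2e1, and in 6 of these the interval lay wholly beyond 2-fold. The 6 include Cyp2d10, whose interval is too narrow, since its value of 0 in GIP-GFP had limits of 0.

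The proximal promoters were read for letters of factors known from gut and liver. RefSeq windows on GRCm38.p6, from 250 bases before to 50 after the start, were found for 31 of the 37 members at 5 scaled FPKM or more and gave 36 windows, since Cyp4f14 has 4, Cyp3a25 has 2 and Cyp4f40 has 2 that overlap and can show the same letters again. The core of the HNF4 site, CAAAGTCCA on either strand, was in 4 of the 36 (11.1%) and in 0.475% of all 32851 windows. The nuclear receptor letters AGGTCA were in 19.4% against 16.3%, the GATA letters AGATAA in 22.2% against 11.2%, the AHR core GCGTG in 27.8% against 32.4%, the letters CAGATG, an E-box bound by NEUROD1 and NEUROG3, in 19.4% against 17.2%, and TATAAA in 27.8% against 13.6%. The HNF1 core was in 0 of the members' windows and in 0.00913% of all. HNF4 is the nuclear receptor that keeps liver and enterocyte genes active, so the windows that hold its core are shown on the strand of the gene, with the core in capitals. The core starts 109 bases before the start of Cyp3a11 (chr5:145879929-145879989, minus strand), 99 before Cyp3a16 (chr5:145469788-145469848, minus strand), 116 before Cyp2c65 (chr19:39060864-39060924, plus strand) and 77 before Cyp2c68 (chr19:39741144-39741204, minus strand).
Cyp3a11: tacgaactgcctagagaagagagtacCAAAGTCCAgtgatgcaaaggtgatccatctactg
Cyp3a16: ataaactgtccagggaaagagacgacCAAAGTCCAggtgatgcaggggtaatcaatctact
Cyp2c65: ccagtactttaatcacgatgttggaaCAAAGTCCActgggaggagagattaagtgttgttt
Cyp2c68: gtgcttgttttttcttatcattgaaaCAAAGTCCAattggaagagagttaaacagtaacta
These 4 genes did not share a pattern over the libraries. Cyp3a11 and Cyp3a16 were at log2 ratios of -2.52 and -1.53 in Ngn3-TOMATO against Ngn3-negative, and Cyp2c65 and Cyp2c68 at -0.38 and 0.28. The 4 windows are from a pair of gene clusters whose members share ancestry and are not independent. Of the genes for HNF4, Hnf4a was at 484 scaled FPKM in Ngn3-negative, 365 in Ngn3-TOMATO and 268 in GIP-GFP, and Hnf4g at 398, 111 and 115.

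The 250 bases before the start are shown for Cyp4b1, the most abundant member that was higher in the reporter libraries, and Cyp2j5, the member with the highest ratio in Ngn3-TOMATO, on the strand of the gene. The window of Cyp4b1 is chr4:115647722-115647971 and that of Cyp2j5 is chr4:96664120-96664369, both on the minus strand. Capitals mark CATCTG in Cyp4b1, the E-box letters read on the other strand, which begin 7 bases before the start, and in Cyp2j5 the letters AGGTCA, 197 bases before it, and TTTATA, the TATA letters on the other strand.
Cyp4b1: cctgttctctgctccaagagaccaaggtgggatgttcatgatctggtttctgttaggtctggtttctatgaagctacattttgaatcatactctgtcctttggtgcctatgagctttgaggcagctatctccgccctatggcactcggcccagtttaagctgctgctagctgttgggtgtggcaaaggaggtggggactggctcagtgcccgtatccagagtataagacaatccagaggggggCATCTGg
Cyp2j5: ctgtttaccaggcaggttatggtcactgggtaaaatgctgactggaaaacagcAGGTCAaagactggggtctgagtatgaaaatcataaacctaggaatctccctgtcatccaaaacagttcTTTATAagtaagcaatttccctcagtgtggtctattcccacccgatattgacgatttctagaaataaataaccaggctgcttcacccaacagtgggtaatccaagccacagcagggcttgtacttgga
The same E-box letters were also in windows of Cyp4f14, Cyp3a11, Cyp2j6 and Cyp3a16, which were all lower in both reporter libraries. In Cyp4f14 they are 1 place in the genome, 189, 176 and 162 bases before 3 alternative starts. A match is a description of these letters and not a bound site.

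With the pseudocount of 1 and the filter of 1, the partners that P450 enzymes need had median ratios nearer to 0 than the enzymes (-0.88 and -1.37). This order was not firm. With no filter on low values the P450 medians moved nearer to 0 than the partner medians given here. In Ngn3-TOMATO a pseudocount of 5 did the same. The partner medians were not computed in those settings. Of 8 redox partners compared against Ngn3-negative, 2 were at least 2-fold lower in Ngn3-TOMATO (9.93% of all genes) and 2 in GIP-GFP (13.7%). None was higher (19.2% and 21.1% of all genes), and the medians were -0.67 and -0.56. Por, the reductase that feeds electrons to microsomal P450, was at 162 scaled FPKM in Ngn3-negative, 154 in Ngn3-TOMATO and 191 in GIP-GFP, so the levels were close while the P450 sum was not. Cytochrome b5 (Cyb5a), an accessory electron donor, was at 903, 363 and 416, and the mitochondrial ferredoxin Fdx1, the donor to Cyp27a1, was at 84.9, 30.3 and 38.3.
Heme synthesis and breakdown had 1 of 11 genes at least 2-fold lower in each comparison, a share near or below the background of 9.93% and 13.7%, with medians of -0.72 and -0.57. Alas1, its rate-limiting enzyme, was at 107, 53.4 and 50.6.

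Several receptors that switch P450 genes on were lower as well. Of 24 nuclear receptors and sensors compared, 9 were at least 2-fold lower (9.93% of all genes) and 2 higher (19.2%) in Ngn3-TOMATO. In GIP-GFP 12 were lower (13.7%) and 3 higher (21.1%), and the medians were -0.85 and -0.95. Nr1i3, which encodes CAR, was at 91.5 in Ngn3-negative, 9.30 in Ngn3-TOMATO and 11.8 in GIP-GFP, but its value in Ngn3-negative had a failed estimation status. Nfe2l2, the sensor of oxidative stress, was at 426, 192 and 173. Nr1i2, which encodes PXR and was chosen after its values were seen together with Ahr, was at 114, 57.2 and 55.6, and Ahr at 12.7, 6.16 and 5.76.
The lists of other detoxification steps held more genes past 2-fold lower than past 2-fold higher in both comparisons with Ngn3-negative. Of the other phase 1 enzymes, 18 of 28 were at least 2-fold lower (9.93% of all genes) and 2 higher (19.2%) in Ngn3-TOMATO. In GIP-GFP 18 of 29 were lower (13.7%) and 2 higher (21.1%). Adh6a, an alcohol dehydrogenase, was at 1107 in Ngn3-negative, 209 in Ngn3-TOMATO and 201 in GIP-GFP. Adh1, the most abundant gene of this list, was at 1028, 959 and 694 and stayed within 2-fold. Of the flavin monooxygenases, Fmo1 was higher in both reporter libraries, at 7.92, 49.2 and 103, and Fmo2 in Ngn3-TOMATO, at 2.26, 46.3 and 0.666. Fmo4 (81.2, 19.9, 18.0) and Fmo5 (131, 59.4, 37.9), chosen after their values were seen, were at least 2-fold lower in both. The other gene at least 2-fold higher in GIP-GFP, Nqo1, a quinone reductase, was at 76.3, 34.4 and 218.
Conjugating enzymes had 17 of 26 at least 2-fold lower (9.93% of all genes) and 1 higher (19.2%) in Ngn3-TOMATO. In GIP-GFP 18 of 26 were lower (13.7%) and 0 higher (21.1%), and the medians were -1.30 and -1.80. Gsta1, a glutathione transferase, was at 122, 44.8 and 14.6, and the 1 higher gene, Gstt1, was at 149, 684 and 281. Mgst3, the most abundant gene of this list, was at 1014, 627 and 602 and stayed within 2-fold. Export transporters had 6 of 13 lower (9.93%) and 2 higher (19.2%) in Ngn3-TOMATO, and 7 of 12 lower (13.7%) and 3 higher (21.1%) in GIP-GFP. The shares of higher transporters were near the background. Among the transporters Abcc2, a pump for conjugates, was at 313, 101 and 50.6, and Abcc4 was at 0.950, 7.64 and 10.3. Abcc1 was likewise higher in both reporter libraries, at 6.68, 17.1 and 35.2.
Retinoid handling was split. In each comparison 5 of 12 genes were at least 2-fold lower (9.93% and 13.7% of all genes) and 4 higher (19.2% and 21.1%). Rbp4, the plasma carrier of retinol, was at 9.07, 489 and 2383. Rbp2, the most abundant gene of this list, was at 4726, 1151 and 3049. The P450 proteins with other symbols, Ptgis and Tbxas1, stayed at or below 0.492 in every library.

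**Figure D5:**
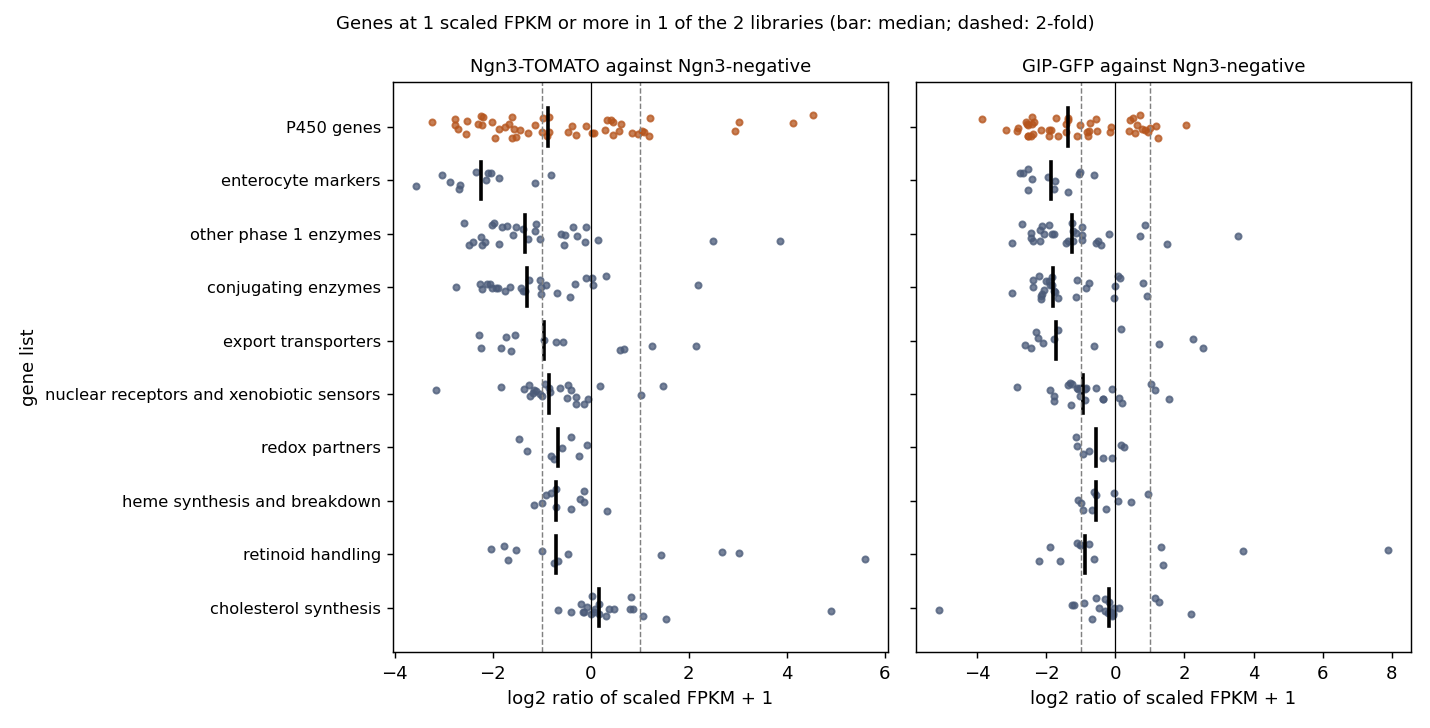
Log2 ratios of scaled FPKM plus 1 against Ngn3-negative for the P450 genes (orange) and for other gene lists (blue), with 1 point per gene at 1 or more in 1 of the 2 libraries and a bar at the median. The P450 median (-0.88 and -1.37) lies between those of the enterocyte markers (-2.24 and -1.87) and of the redox partners (-0.67 and -0.56). Cholesterol synthesis is near 0 (0.17 and -0.19). The P450 medians moved with the filter and the pseudocount.

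Genes whose levels lay nearest to those of Cyp4f14, the most abundant member, were sought among 4608 genes at 50 scaled FPKM or more, by the distance of their log2 values over the 3 libraries. The nearest was the bile acid binding protein Fabp6, with 817 in Ngn3-negative, 181 in Ngn3-TOMATO and 173 in GIP-GFP, at a distance of 0.109. Mgam, a brush border glucosidase, Arg2, Reg3a and Aoc1 came next, at 0.193 to 0.365.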

How the data were processed

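Each group had 1 pooled library. Reads were processed with FastQC, TopHat 1.5.0 and Cufflinks on mm10, per the submitters' processing notes. For Cufflinks, no version is given in the sources used here. The authors deposited FPKM per UCSC transcript with its limits, and coverage as a signal (mean read depth per base), per the file headers. Deposited FPKM was a constant multiple of coverage in each library (29553 in GIP-GFP, 12249 in Ngn3-TOMATO, 16284 in Ngn3-negative). The multiple was larger where depth was lower, and the sources used here do not give how it was set.

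Of 59120 transcripts, 52071 were matched to symbols of GENCODE M21 by ends, spliced length and overlap, and 155 of these were P450 transcripts, of which 17 matched by overlap only. Deposited starts count from 0, which 9343 of 9376 matched transcripts showed, and 1 was added. FPKM of transcripts of 200 bases or more was summed per symbol and divided by the same number, 8163, in all libraries (scaled FPKM), which leaves ratios between libraries as deposited. Transcripts with the status of too many reads were treated as missing, which dropped 4 genes. Ratios used a pseudocount of 1, which understates differences of low genes, and a filter of 1 in at least 1 of the 2 libraries. Intervals at 95% took the deposited limits as 2 standard errors and cover counting and read assignment only. With 1 library a group there is no test. The ratio step was tested on simulated data.

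The rule for the members used gene symbols only. That rule, the lists and the promoter motifs were set with earlier results of these data known. Members at 1 scaled FPKM or more are named, those at 5 or more and past 2-fold with full statistics. Of each other list up to 4 genes are named, except where the text says otherwise. These are some of the most abundant genes and of those with the largest ratios, and not all of either. Por, Fdx1, Hnf4a, Hnf4g, Abcc1, Gstt1, Nqo1, the flavin monooxygenases and the marker and receptor genes were added for their role or after their values were seen. Scaling to equal totals moved the median log2 ratio of all genes by -0.24 in Ngn3-TOMATO and -0.21 in GIP-GFP against Ngn3-negative, and by 0.03 between them. Python 3.11.15, pandas 2.3.3, numpy 2.4.6 and matplotlib 3.10.9 were used.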

Additional observations from a re-analysis of the deposited data

How the results depend on the processing

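The counts of lower members stayed within 1.5 times of the reported ones in all 8 planned and 3 added settings, the latter chosen after seeing the data. The few higher members and the medians moved, and the cause was not tested except that the filters change which members enter. With a pseudocount of 5 the higher members in Ngn3-TOMATO against Ngn3-negative were 5 instead of 8 and the median -0.41 instead of -0.88, in GIP-GFP against Ngn3-negative 1 instead of 4 and -0.92 instead of -1.37, and in GIP-GFP against Ngn3-TOMATO 0 instead of 2. A pseudocount of 0.1 gave 8 higher members in GIP-GFP against Ngn3-negative, and the most abundant transcript alone 2. With no filter the medians against Ngn3-negative were 0.01, so that the direction was lost, and -0.14. With libraries scaled to equal totals 5 members were higher and 26 lower in Ngn3-TOMATO, and the median in GIP-GFP was -1.53. With a filter of 5 on the mean over the 3 libraries 5 members were higher in Ngn3-TOMATO with a median of -1.56, the median in GIP-GFP was -1.67, and 0 were higher in GIP-GFP against Ngn3-TOMATO, as with only transcripts that share an end and without close copies. Of the 91 ratios of 31 named members, 88 kept their sign and 74 their side of 2-fold, and all 62 past 2-fold kept their sign. Those that changed sign were near 0, namely Cyp2s1 in Ngn3-TOMATO against Ngn3-negative, and Cyp3a13 and Cyp4b1 in GIP-GFP against Ngn3-TOMATO. No paired analysis was possible because each group has 1 library, and for that reason no library could be left out. A value listed at 0 gives no upper limit here, since the files hold no counts.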

Other observations

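Genes nearest in level to 3 further members were listed after their values were seen, among 10453 genes at 10 scaled FPKM or more. Nearest to Cyp4b1 was Ubl3, a ubiquitin-like protein, with 86.1 scaled FPKM in Ngn3-negative, 177 in Ngn3-TOMATO and 233 in GIP-GFP. Nearest to Cyp2j5 were Man1c1, with 0.442, 33.1 and 2.50, and Crmp1, with 0.501, 24.6 and 1.80. Nearest to Cyp2f2 was Adcy8, an adenylate cyclase, with 3.33, 29.5 and 0.854, and the flavin monooxygenase Fmo2 ranked 4, with 2.26, 46.3 and 0.666. The pancreatic enzyme genes on the acinar list summed to 229 scaled FPKM in Ngn3-negative, 33.0 in Ngn3-TOMATO and 34.5 in GIP-GFP, and Cela2a was listed at 0 in both reporter libraries. Proliferation markers summed to 448, 159 and 133 in the same order, leukocyte markers to 111, 49.0 and 283, of which Gzma made up 94.4, 36.0 and 243, tuft cell markers to 70.2, 143 and 19.6, and stroma markers to 8.86, 307 and 147, of which Vim made up 7.98, 297 and 145.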
